A study of Mus musculus with 15 samples.

Results

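Hid1, Arfgef3, Ankrd55, Hepacam2, Crisp3, Arhgap32 and Angptl6 are 7 mouse genes that are less often discussed in plasma cells than Prdm1, Xbp1 or Sdc1. They were chosen by their large rise in plasma cells in these same libraries, with no stated threshold or reference group. Their levels in plasma cells are therefore given below as a description with no test. The rule named 7 of the 51912 genes in the deposited table, and all 7 were among the 15692 genes that passed the filter on low counts. No member was higher in plasma cells of 1 isotype only, but for Arfgef3, Arhgap32 and Angptl6 the IgG1 plasma cells were not above the day 6 culture while the IgE plasma cells lay far above it.

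The 15 libraries form 5 groups of 3 biological replicates from wild-type mouse B cells. All groups shared 6 days on 40LB cells, a feeder line of fibroblasts made to supply B cell survival and CD40 signals, with IL-4 at 100 ng/ml. The day 6 group (D6) is the unsorted culture at that point, and the labels name no treatment beyond this. The other 4 groups were taken off the feeders, kept without stimulation for 2 more days and sorted at day 8 by isotype, IgE or IgG1, and by stage, where PC are plasma cells and iGC is the labels' name for the switched cells that had not become plasma cells. All cells came from culture and not from an animal's tissue, and the labels do not say whether the replicates came from separate animals, so p-values measure the spread between these libraries.

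Plasma cells are the antibody-secreting end stage of B cells. They shut down much of the B cell programme, expand the endoplasmic reticulum and the Golgi, and move large amounts of antibody to the cell surface. Of the 7 genes, Hid1 and Arfgef3 encode large Golgi-associated proteins known from the making of hormone granules in endocrine cells. Crisp3 and Angptl6 encode secreted proteins. Ankrd55 encodes an ankyrin-repeat protein known mainly from genetic association with autoimmune disease, Hepacam2 an immunoglobulin-superfamily membrane protein, and Arhgap32 a GTPase-activating protein studied mostly in neurons.

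Library totals ran from 17.7 M to 54.1 M expected counts, with the lowest in IgE iGC replicate 3. Replicates correlated across genes at 0.978 to 0.993 (Pearson r of log2 CPM, counts scaled to the size of the library). The 3 IgG1 PC libraries were further apart than those of the other groups, with chi-square per degree of freedom of 30.6 to 105 between pairs against 4.82 to 26.1 elsewhere, and IgG1 PC replicate 1 was in both of the widest pairs. The summed level of 7 plasma cell markers reached 19150 to 21540 CPM in IgE PC. It was 10730 to 16060 CPM in IgG1 PC and 664 to 1192 CPM in the remaining 9 libraries. Markers of fibroblasts, the cell type of the feeders, also differed between groups. Their sum over 11 genes was 213 to 347 CPM in D6, 52.2 to 70.5 in IgE iGC, 22.2 to 36.9 in IgE PC, 29.8 to 61.3 in IgG1 iGC and 67.0 to 197 in IgG1 PC, with Postn at 0 in all groups but IgG1 PC and Lum at 0 in both IgE groups. Their part in the comparisons below was not tested. In these bulk libraries, fewer cells of a type and less RNA per cell cannot be told apart.

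**Figure D1:**
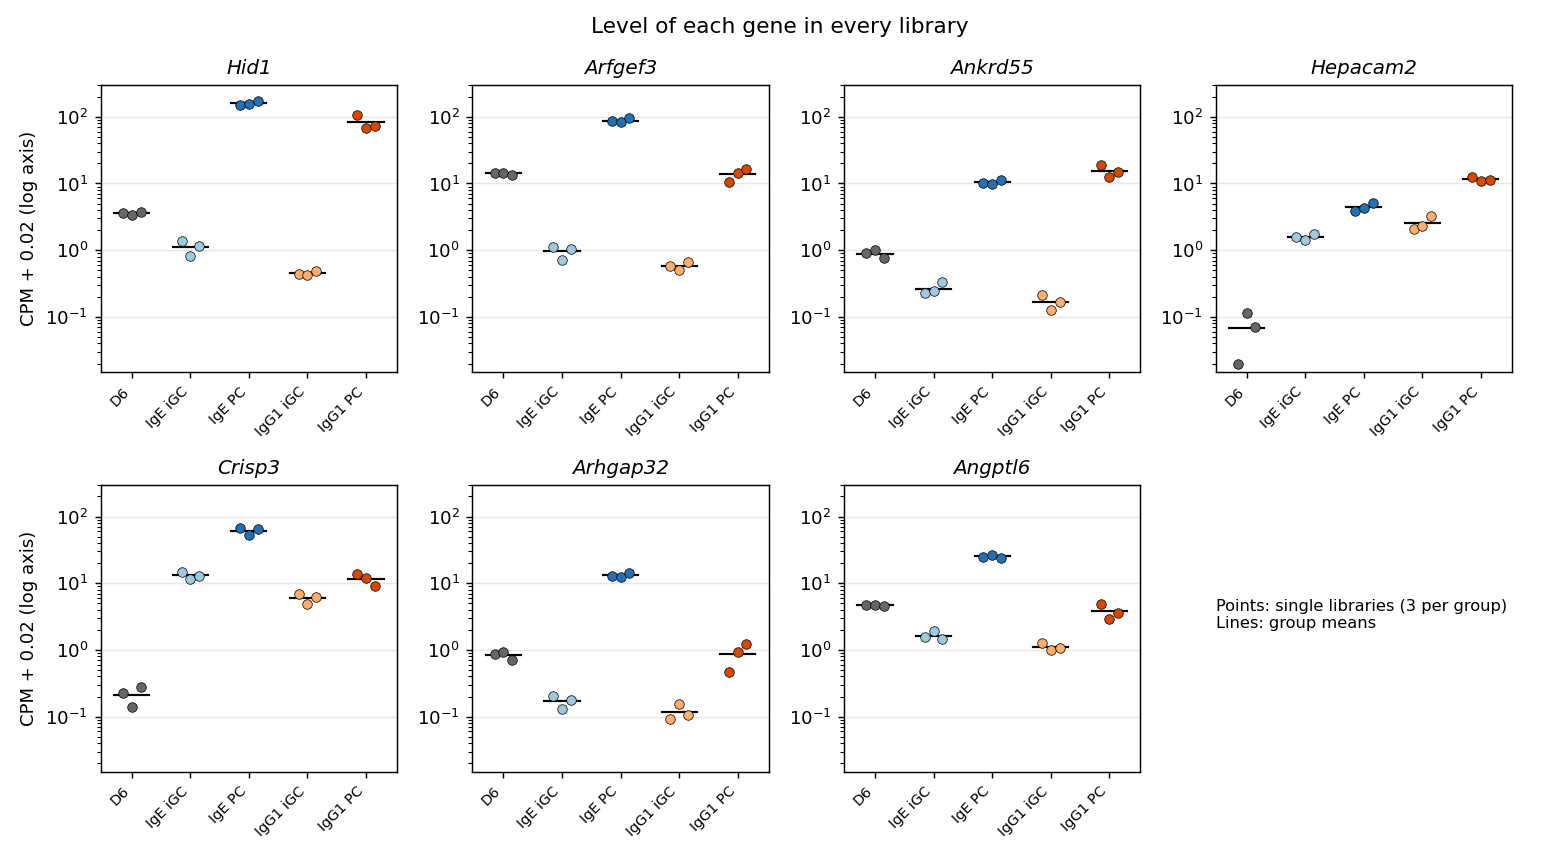
Level of each of the 7 genes in every library, as CPM plus a small constant on a log axis, by group; points are the 3 libraries of a group and lines are group means. Hepacam2 and Crisp3 are lowest in the day 6 culture, whereas the other 5 genes are lowest in the iGC groups, and IgE PC sits highest for all genes but Ankrd55 and Hepacam2.

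Hid1 (ENSMUSG00000034586, GRCm38 chr11:115347707-115367756, minus strand, protein-coding) encodes a Golgi protein needed for the formation of dense-core secretory granules. It was at 151, 154 and 172 CPM in the IgE PC libraries and 107, 68.5 and 73.8 CPM in IgG1 PC, in replicate order. D6 held 3.61, 3.37 and 3.78 CPM. IgE iGC held 1.34, 0.805 and 1.14 CPM and IgG1 iGC 0.417, 0.403 and 0.464 CPM. No neighbouring groups overlapped in this order, and the plasma cell means were 145 times the iGC mean in IgE and 195 times in IgG1. On the log2 scale the stage difference was 7.17 (SE 0.20) in IgE and 7.59 (SE 0.22) in IgG1. By length-scaled level Hid1 was the highest of the 7 genes in both plasma cell groups, at 55.5 ± 1.77 TPM (a measure scaled for transcript length; mean ± SD, n = 3) in IgE PC and 32.1 ± 2.80 in IgG1 PC.

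Arfgef3 (ENSMUSG00000019852, chr10:18581839-18743949, minus strand, protein-coding) belongs to the family of Sec7-domain proteins whose other members activate ARF GTPases at the Golgi and endosomes. In IgE PC it was at 85.5, 83.3 and 94.3 CPM. IgG1 PC held 10.4, 14.5 and 16.6 CPM, a range that spans that of D6, at 14.5, 14.4 and 13.4 CPM. The iGC libraries were far lower, at 1.09, 0.694 and 1.03 CPM in IgE and 0.564, 0.483 and 0.637 CPM in IgG1. IgE PC was thus alone above the starting culture, while IgG1 PC was above both iGC groups but not above D6. The stage difference was 6.55 (SE 0.18, log2) in IgE and 4.63 (SE 0.20) in IgG1. Its transcripts are long, up to 14579 bases, and its level per length was modest, at 6.33 ± 0.136 TPM in IgE PC (mean ± SD, n = 3).

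Ankrd55 (ENSMUSG00000049985, chr13:112288451-112384002, plus strand, protein-coding) was highest in IgG1 PC, at 19.0, 12.4 and 14.7 CPM. IgE PC followed at 10.1, 9.95 and 11.4 CPM. D6 was at 0.885, 0.972 and 0.736 CPM, above IgE iGC at 0.205, 0.222 and 0.310 CPM and IgG1 iGC at 0.196, 0.107 and 0.145 CPM. None of the neighbouring groups overlapped, although the iGC values rest on 4 to 9 counts per library. The plasma cell mean was 42.6 times the iGC mean in IgE and 103 times in IgG1, with stage differences of 5.47 (SE 0.22, log2) and 6.64 (SE 0.23).

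Hepacam2 (ENSMUSG00000044156, chr6:3457096-3498298, minus strand, protein-coding) encodes a membrane protein found at the Golgi and, in dividing cells, at the spindle poles, where it is a substrate of tankyrase. It was barely counted in the day 6 culture, with 0, 4 and 2 counts in the 3 libraries. IgE iGC held 1.55, 1.39 and 1.76 CPM and IgG1 iGC 2.04, 2.25 and 3.25 CPM. The plasma cell groups were higher again, at 3.83, 4.23 and 5.12 CPM in the IgE and 12.6, 10.7 and 11.4 CPM in the IgG1 libraries. Every group was separate from its neighbour. The iGC cells already held 35.6% of the plasma cell mean in IgE and 21.8% in IgG1. This share was 21.3% and 51.8% for Crisp3, 6.43% and 28.8% for Angptl6, and lowest for Hid1, at 0.688% and 0.514%. The stage difference was 1.5 (SE 0.23, log2) in IgE and 2.20 (SE 0.22) in IgG1.

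Crisp3 (ENSMUSG00000025433, chr17:40221777-40242288, minus strand, protein-coding) encodes a cysteine-rich secretory protein of the CAP superfamily, known from salivary gland and, in mouse B cells, as a gene controlled by the transcription factor OCT2. D6 held 0.204, 0.119 and 0.254 CPM, on 5 to 10 counts per library. The iGC libraries held 14.9, 11.8 and 12.6 CPM in IgE and 6.87, 4.94 and 6.14 CPM in IgG1. IgE PC reached 66.3, 53.6 and 64.5 CPM, whereas IgG1 PC was at 13.7, 11.9 and 9.07 CPM, within reach of IgE iGC. Crisp3 was therefore the only 1 of the 7 genes in which an iGC group (IgE) overlapped a plasma cell group (IgG1). The stage difference was 2.23 (SE 0.15, log2) in IgE and 0.94 (SE 0.16) in IgG1, and the IgG1 iGC cells held 51.8% of the IgG1 PC mean. On log2(TPM + 0.5) the IgG1 difference of Crisp3 was 0.32.

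The sequence before the Crisp3 start is shown because OCT2 binds octamer motifs, and because Crisp3 is the gene of this set with the largest climb from day 6 in both IgE groups. The 250 bases before the RefSeq start (GRCm38.p6, chr17:40242289-40242538, minus strand) hold no full octamer ATGCAAAT, which is found in 1.60% of the 32851 mouse windows of the same length. They do hold its first 7 letters, ATGCAAA, on the opposite strand at positions -72 to -66, a match sought after the sequence was seen and present in 4.12% of windows. A TATAAA lies at -31 to -26 (12.4% of windows) and an E-box of the form CAGCTG at -21 to -16 (13% of windows), where -1 is the base just before the start. The Angptl6 window (233 bases outside annotated exons, chr9:20879728-20879960, minus strand) is given for comparison, since that gene was lower, and Crisp3 higher, at the iGC stage than at day 6. It holds none of the motifs searched on both strands. These were the octamer ATGCAAAT and its shorter form ATGCAAA, the E-box CAGCTG, the E-box CATATG, the E-box CACGTG, the element CCACGT (which can overlap CACGTG), the element TGACGT, the element GTGAAAG, the TATA motif TATAAA, and a pair of GAAA separated by any 2 bases. A match here describes letters and not binding. In the lines below, capitals mark the matches, read 5′ to 3′ on the gene's strand.

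Crisp3: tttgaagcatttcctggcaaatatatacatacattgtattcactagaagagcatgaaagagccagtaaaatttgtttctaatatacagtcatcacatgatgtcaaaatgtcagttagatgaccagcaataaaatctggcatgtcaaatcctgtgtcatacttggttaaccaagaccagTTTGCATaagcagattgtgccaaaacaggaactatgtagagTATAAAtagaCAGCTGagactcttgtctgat

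Angptl6: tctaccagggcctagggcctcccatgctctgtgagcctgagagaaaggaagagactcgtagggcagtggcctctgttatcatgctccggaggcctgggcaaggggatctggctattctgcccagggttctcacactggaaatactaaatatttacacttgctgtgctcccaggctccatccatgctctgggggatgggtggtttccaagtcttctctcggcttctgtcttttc

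Of the 7 genes, 5 had RefSeq promoter entries; Hid1 and Ankrd55 were not among them. Besides Crisp3, Hepacam2 had matches in its window, with CAGCTG at -31 to -26 and TATAAA on both strands, overlapping, at -235 to -228. Its window lies inside the annotated gene. The stretch outside annotated exons ends 99 bases before the start, so the TATAAA lies within that stretch and the CAGCTG does not. The windows of Arfgef3 and Arhgap32 held none.

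Arhgap32 (ENSMUSG00000041444, chr9:32116136-32268446, plus strand, protein-coding) encodes a GTPase-activating protein that has been studied at synapses. In IgE PC it was at 13, 12.3 and 14.1 CPM. No other group exceeded 1.19 CPM. IgG1 PC held 0.455, 0.907 and 1.19 CPM and D6 held 0.840, 0.9 and 0.685 CPM, and these ranges overlapped. The iGC libraries held 0.182, 0.111 and 0.155 CPM in IgE and 0.0736, 0.134 and 0.0869 CPM in IgG1, which correspond to 3 to 8 counts each and also overlapped. At 3 counts, as in 1 IgE and 2 IgG1 iGC libraries, a library is at the limit that a count of 0 allows, so the fitted folds against both iGC groups are approximate. The stage difference was 6.41 (SE 0.31, log2) in IgE and 3.12 (SE 0.36) in IgG1. On log2(TPM + 0.5) the IgG1 difference of Arhgap32 was 0.24, since its TPM is under the added constant in both IgG1 groups.

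Angptl6 (ENSMUSG00000038742, chr9:20873808-20879727, minus strand, protein-coding) encodes a secreted angiopoietin-like protein known from liver and from effects on vessels and metabolism. IgE PC was at 25.1, 26.7 and 23.8 CPM. D6, at 4.67, 4.62 and 4.57 CPM, lay inside the range of IgG1 PC, at 4.90, 2.88 and 3.54 CPM. IgE iGC held 1.52, 1.89 and 1.45 CPM and IgG1 iGC 1.25, 0.966 and 1.04 CPM. As with Arfgef3 and Arhgap32, IgE PC alone stood above the day 6 culture. The stage difference was 3.94 (SE 0.17, log2) in IgE and 1.76 (SE 0.18) in IgG1. Part of the gene, 265 exonic bases or 16.7% of its exonic length, is shared with A230050P20Rik on the opposite strand. Reads were strand-specific, but whether the counting used strand is not given in the sources used here. A230050P20Rik moved the other way, from 20.6 CPM at D6 to 39.7 and 41.2 CPM in IgE and IgG1 iGC and back to 24.7 and 28.2 CPM in the plasma cells.

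**Figure D2:**
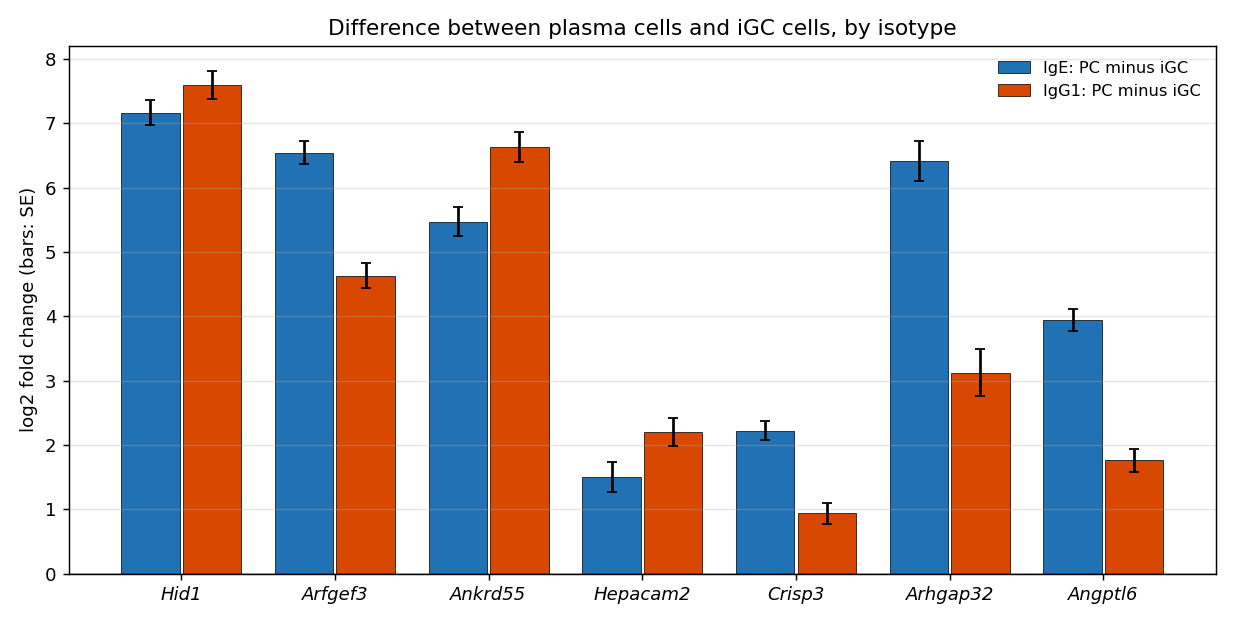
Log2 fold change between plasma cells and iGC cells in each isotype for the 7 genes, with bars of 1 standard error from the fit over all 15 libraries. Arfgef3, Crisp3, Arhgap32 and Angptl6 have the taller bar in IgE, and Hid1, Ankrd55 and Hepacam2 have the taller bar in IgG1.

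The question of isotype can be read from the stage differences side by side. The genes were chosen for their rise in plasma cells, with no reference group stated. That 7 of 7 were higher in PC than in iGC cells in both isotypes is therefore no test of them. For background, 30.5% of all genes tested were called higher and 33.6% lower in IgE, and 30.1% higher and 29.0% lower in IgG1, where called means an adjusted p under 0.05 by edgeR's quasi-likelihood test with Benjamini-Hochberg adjustment over all genes. On log2(TPM + 0.5) the IgG1 stage difference was only 0.24 for Arhgap32 and 0.32 for Crisp3. The stage difference in IgE minus that in IgG1 was 3.29 (SE 0.61, log2) for Arhgap32, 2.18 (SE 0.25) for Angptl6, 1.92 (SE 0.32) for Arfgef3 and 1.29 (SE 0.22) for Crisp3. It was -1.17 (SE 0.41) for Ankrd55, -0.70 (SE 0.31) for Hepacam2 and -0.43 (SE 0.38) for Hid1, which was the smallest of the 7.

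Between the plasma cells themselves, 5 genes were higher and 2 lower in IgE PC than in IgG1 PC, against 27.4% of all genes called higher and 30.7% called lower. Of the genes called in this contrast 47.2% were higher in IgE PC, or 23.8% with total-count scaling, under which the 7 genes kept their directions. The IgE PC mean was 15.4 times the IgG1 PC mean for Arhgap32, 6.68 times for Angptl6, 6.34 times for Arfgef3, 5.32 times for Crisp3 and 1.91 times for Hid1. In the other direction the IgG1 PC mean was 2.63 times that of IgE PC for Hepacam2 and 1.47 times for Ankrd55. The fitted differences were 3.9 (SE 0.24, log2) for Arhgap32, 2.76 (SE 0.15) for Angptl6, 2.65 (SE 0.13) for Arfgef3, 2.42 (SE 0.15) for Crisp3 and 0.94 (SE 0.13) for Hid1, with -1.39 (SE 0.21) for Hepacam2 and -0.55 (SE 0.15) for Ankrd55. Without IgG1 PC replicate 1, the library that stood apart, they were 3.65 for Arhgap32, 2.98 for Angptl6, 2.49 for Arfgef3, 2.55 for Crisp3, 1.16 for Hid1, -1.33 for Hepacam2 and -0.37 for Ankrd55. That library held the highest level of Hid1, Ankrd55, Hepacam2, Crisp3 and Angptl6 among the IgG1 PC and the lowest of Arfgef3 and Arhgap32.

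**Figure D3:**
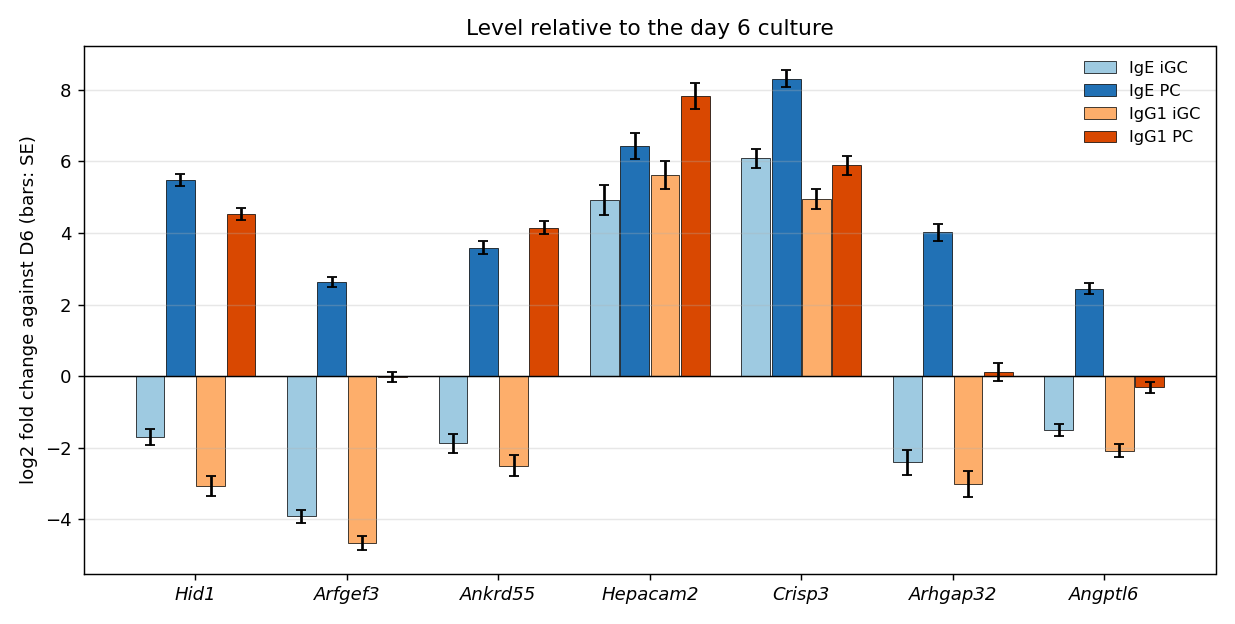
Log2 fold change of each sorted group against the day 6 culture for the 7 genes, with bars of 1 standard error. Hid1, Ankrd55, Hepacam2 and Crisp3 lie above day 6 in both plasma cell groups, Arfgef3, Arhgap32 and Angptl6 lie above it in IgE PC but at -0.02, 0.12 and -0.32 in IgG1 PC, and only Hepacam2 and Crisp3 lie above it in iGC cells.

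Against the day 6 culture, IgE PC was higher for 7 of 7 genes (36.9% of all genes called higher, 39.5% lower) and IgG1 PC for 4 of 7 (35.9% higher, 36.0% lower). For the other 3 the replicate ranges of IgG1 PC and D6 overlapped. Over the 13 alternatives their log2 difference ran from -0.93 to -0.14 for Angptl6, -0.55 to 0.14 for Arfgef3 and -0.65 to 0.37 for Arhgap32. With total-count scaling the share of calls that were higher was 26.8% for IgE PC, against 48.3% with TMM, and 35.0% for IgG1 PC, against 49.96% with TMM. The comparisons share the D6 libraries, whose fibroblast marker sum was above those of IgE PC and IgG1 PC. Plasma cell values again entered the choice of genes, and D6 values may have too. The differences for Hid1 were 5.47 (SE 0.17, log2) in IgE PC and 4.53 (SE 0.16) in IgG1 PC, and those for Ankrd55 were 3.59 (SE 0.18) and 4.14 (SE 0.18). For Crisp3 they were 8.30 (SE 0.24) and 5.88 (SE 0.26). For Hepacam2 they were 6.42 (SE 0.37) and 7.82 (SE 0.35), on the few D6 counts given above; without D6 replicate 2 they were 7.33 for Hepacam2, IgE PC versus D6, and 8.72 for Hepacam2, IgG1 PC versus D6. Without D6 replicate 1 they were 5.84 and 7.23. The lowest values over the 13 alternatives were 2.20 in IgE PC and 3.54 in IgG1 PC for Hepacam2, and 5.86 and 3.65 for Crisp3. The other 3 genes split by isotype. Arfgef3 was at 2.64 (SE 0.13) in IgE PC and -0.02 (SE 0.13) in IgG1 PC, Arhgap32 at 4.01 (SE 0.24) and 0.12 (SE 0.25), and Angptl6 at 2.45 (SE 0.15) and -0.32 (SE 0.15). On log2(TPM + 0.5) the IgG1 PC values of these 3 genes were -0.55, -0.65 and -0.93. Without IgG1 PC replicate 1, the CPM-based values were 0.14, 0.37 and -0.53.

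The contrast of iGC cells with the day 6 culture shares libraries with the choice of the genes, which named no reference group. A choice of large rises over iGC cells favours low iGC values, and one over day 6 favours low D6 values. Lower values in iGC cells are therefore given as a description, and a p only for the genes that were higher there. Low D6 values may have entered the choice of those genes, so their p-values are not free of it. In IgE iGC cells 5 genes were lower (36.3% of all genes were called lower) and 2 were higher (32.8% called higher). The differences were -3.91 on the log2 scale (SE 0.19) for Arfgef3, -2.40 (SE 0.35) for Arhgap32, -1.88 (SE 0.27) for Ankrd55, -1.70 (SE 0.24) for Hid1 and -1.5 (SE 0.17) for Angptl6. By edgeR's quasi-likelihood test Crisp3 rose by 6.08 (SE 0.26, adjusted p = 2.90e-11), a mean 68.1 times that of D6, and Hepacam2 rose by 4.92 (SE 0.41, adjusted p = 4.37e-08).

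The same 5 genes were lower in IgG1 iGC cells (36.0% of all genes called lower) and the same 2 higher (32.4% called higher). This comparison shares the D6 libraries with the one above, and its p-values have the same limit. The differences were -4.65 (SE 0.20) for Arfgef3, -3.06 (SE 0.28) for Hid1, -3.01 (SE 0.37) for Arhgap32, -2.5 (SE 0.29) for Ankrd55 and -2.08 (SE 0.18) for Angptl6. Hepacam2 rose by 5.61 (SE 0.39, adjusted p = 5.18e-09) and Crisp3 rose by 4.95 (SE 0.28, adjusted p = 5.91e-10). The calls of Hepacam2 and Crisp3 held in both isotypes in each of the 13 alternatives run. The size of the Hepacam2 change rests on few D6 counts: without D6 replicate 2 it was 5.82 in IgE and 6.52 in IgG1, and without D6 replicate 1 it was 4.33 and 5.03. Over all 13 alternatives it ran from 1.60 to 5.82 in IgE and from 2.04 to 6.52 in IgG1. The Crisp3 change ran from 4.39 to 6.31 in IgE and from 3.33 to 5.18 in IgG1. The fibroblast marker sum was also lower in iGC cells than at D6, and its part in the 5 lower values was not tested.

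Isotype differences among the iGC cells were few, with 1.99% of genes higher and 1.88% lower in IgE iGC than in IgG1 iGC. The iGC values may have entered the choice of the genes under study, so p-values given for them here are not free of it. Crisp3 was higher in IgE iGC by 1.13 (SE 0.16, log2, adjusted p = 0.000666 by edgeR's quasi-likelihood test), with all 3 IgE libraries above all 3 IgG1 libraries, and this call held in all 13 alternatives (adjusted p 7.36e-09 to 0.00695). Hid1 was higher by 1.36 (SE 0.35, adjusted p = 0.0447), also without overlap. That call was lost in 8 of 13 alternatives, whose adjusted p ran from 0.000168 to 0.245 over all 13. Leaving out IgE iGC replicate 1 gave 0.245, IgE iGC replicate 3 gave 0.102, and IgG1 iGC replicates 1, 2 and 3 gave 0.136, 0.134 and 0.110. The other 5 genes were not called, with 95% intervals of 0.13 to 1.34 for Arfgef3, -0.19 to 1.42 for Ankrd55, -1.20 to -0.19 for Hepacam2, -0.47 to 1.68 for Arhgap32 and 0.16 to 1.00 for Angptl6 on the log2 scale. DESeq2 gave Hepacam2 an adjusted p of 0.0366.

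To see which genes shared each pattern, log2 CPM was correlated over the 15 libraries with the 8923 genes that reached a mean of 10 CPM in a group. All of these values share the 5 groups of libraries, so they describe the group pattern. The closest to Hid1 were the plasma cell genes Creb3l2, encoding a membrane-bound transcription factor of the endoplasmic reticulum (r = 0.997), Derl3, of the degradation pathway for misfolded proteins (r = 0.996), and Sdc1, encoding the plasma cell surface marker CD138 (r = 0.995). Ankrd55 was closest to Lamc1, a laminin chain gene (r = 0.996), to Xbp1, encoding the transcription factor of the secretory programme (r = 0.992), and to Pon3, a paraoxonase gene (r = 0.991). Hid1 and Ankrd55 were also close to each other (r = 0.984).

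The genes with the IgE-weighted pattern had other neighbours. Angptl6 was closest to Wars (r = 0.995) and Aars (r = 0.986), which encode cytoplasmic tRNA synthetases, and to Asns, encoding asparagine synthetase (r = 0.984). Asns itself stood at 334 CPM in IgE PC, 120 in IgG1 PC, 124 at D6, 63.7 in IgE iGC and 52.7 in IgG1 iGC, the same order of plasma cells and day 6 as Angptl6 shows. Arfgef3 was closest to Atf5, encoding a stress-responsive transcription factor (r = 0.991), then to Tspan5, a tetraspanin gene (r = 0.990), and Mib1, a ubiquitin ligase gene (r = 0.990). Arhgap32 was closest to Lrrc8d, encoding a volume-regulated anion channel subunit (r = 0.991), to Ascc3, a helicase gene (r = 0.987), and to Pja2, a ubiquitin ligase gene (r = 0.986). Among themselves, Arhgap32 and Angptl6 had r = 0.971, Arfgef3 and Arhgap32 0.949, and Arfgef3 and Angptl6 0.943.

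Hepacam2 and Crisp3 formed a pair apart (r = 0.843), with r of at most 0.480 to any of the other 5 genes. The genes most like Hepacam2 were Ptprv, a receptor tyrosine phosphatase gene (r = 0.988), Stoml1, a stomatin-like gene (r = 0.986), and Nod2, encoding a sensor of bacterial cell wall (r = 0.978). Those most like Crisp3 were Irf2, encoding an interferon regulatory factor (r = 0.993), Fbxo32, a ubiquitin ligase component gene (r = 0.991), and Dgkd, a diacylglycerol kinase gene (r = 0.990). All 6 were lowest at D6, as were Hepacam2 and Crisp3, but across a narrower range: Irf2 ran from 59.6 CPM at D6 to 156 in IgE PC.

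**Figure D4:**
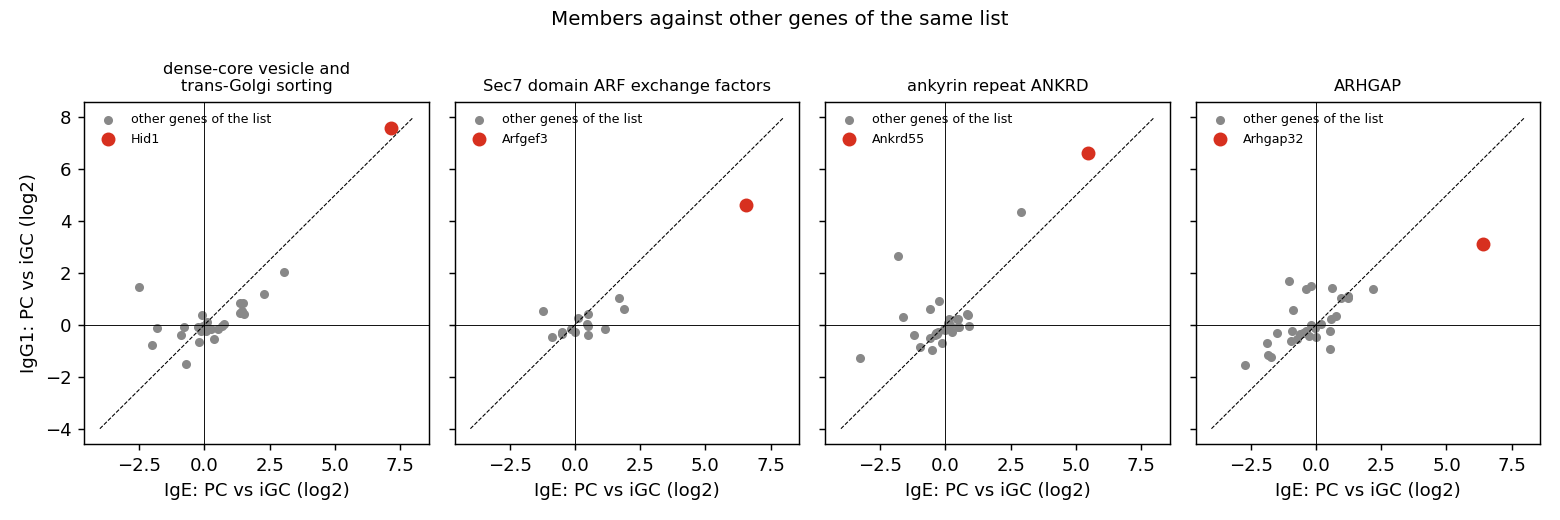
Log2 fold change between plasma cells and iGC cells in IgE (horizontal) and IgG1 (vertical) for Hid1, Arfgef3, Ankrd55 and Arhgap32 (red) and the other tested genes of the same list (grey), with the dashed line marking equal change in both isotypes. Each red point lies beyond all grey points of its panel on both axes, and the red genes were chosen for their rise in plasma cells.

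For Hid1, Arfgef3, Ankrd55 and Arhgap32, the other genes of the same family or process differed less between plasma cells and iGC cells, and in both directions. The 7 genes were chosen for their rise in plasma cells, however, and the others were not. Crisp3, and in IgG1 Angptl6, were exceeded by relatives, given last. Scaling matters to the counts that follow: the median of all genes between IgE PC and IgE iGC was -0.08 (log2) with the TMM scaling used, -0.24 with upper-quartile and -0.55 with total-count scaling, and the share of calls that were higher was 47.6%, 37.5% and 23.3%. In IgG1 the median was 0.01, -0.03 and -0.22 and the share higher 50.9%, 46.7% and 32.1%. For comparison, 10 of 10 plasma cell regulators were higher in PC in each isotype (median 3.96 in IgE and 3.84 in IgG1), as were 16 of 16 plasma cell surface and secretory genes (median 4.27 and 3.51). With total-count scaling these counts were 9 and 16 in IgE and 10 and 15 in IgG1, with none lower.

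Beside Hid1, 25 other genes of dense-core vesicles and trans-Golgi sorting were tested. In IgE 12 rose and 7 fell in PC (median 0.11), and in IgG1 9 rose and 7 fell (median -0.04). With total-count scaling the lean turned, to 9 higher and 14 lower in IgE (median -0.36) and 8 higher and 15 lower in IgG1 (median -0.27). The largest rise in both isotypes was that of Rab3d, a granule-associated Rab GTPase gene, by 3.05 (SE 0.12, adjusted p = 2.91e-12 by edgeR's quasi-likelihood test) in IgE and 2.04 (SE 0.11, adjusted p = 7.54e-10) in IgG1. Golga4, a trans-Golgi tether gene, rose by 2.27 (SE 0.05) and 1.18 (SE 0.05). In the other direction Syt11, a synaptotagmin gene, fell by 2.00 (SE 0.14) in IgE and 0.79 (SE 0.12) in IgG1, and Ap1s2, encoding a subunit of the AP-1 sorting adaptor, by 0.70 (SE 0.14) and 1.53 (SE 0.14). Beside Arfgef3, 14 other Sec7-domain genes were tested, of which 7 rose and 5 fell in IgE (median 0.28) and 5 rose and 5 fell in IgG1 (median -0.09). With total-count scaling 3 were higher and 6 lower in IgE (median -0.19), and 3 higher and 8 lower in IgG1 (median -0.32). Psd3 rose by 1.89 (SE 0.14) in IgE and 0.62 (SE 0.14) in IgG1, and Gbf1, encoding an ARF activator of the early Golgi, by 1.69 (SE 0.05) and 1.02 (SE 0.05). Cyth1, a cytohesin gene, fell by 0.89 (SE 0.05) and 0.48 (SE 0.05), and Psd fell by 1.24 (SE 0.25) in IgE but rose by 0.53 (SE 0.21) in IgG1.

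Among 28 other ANKRD genes 10 rose and 9 fell in IgE (median -0.09) and 7 rose and 11 fell in IgG1 (median -0.08). The closest to Ankrd55 was Ankrd35, named after its values were seen, at 2.89 (SE 0.68) and 4.37 (SE 0.83) but under 1 CPM in every group. In the other direction the lowest value of the list was -3.27 in IgE and -1.29 in IgG1. Ankrd37 fell from 4.97 CPM in IgE iGC to 0.511 in IgE PC, and from 4.61 in IgG1 iGC to 1.88 in IgG1 PC. Among 29 other ARHGAP genes 9 rose and 13 fell in IgE (median -0.25) and 7 rose and 13 fell in IgG1 (median -0.23). Arhgap31 rose by 2.20 (SE 0.09) and 1.40 (SE 0.09), whereas Arhgap26 fell by 2.72 (SE 0.17) and 1.53 (SE 0.16). These 2 lists leaned further towards falls with total-count scaling, with 3 higher and 18 lower ANKRD genes and 5 higher and 19 lower ARHGAP genes in IgE, and 4 and 16, and 6 and 17, in IgG1.

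The families of the secreted proteins were mostly below the count filter. Of 13 other CAP superfamily genes 4 were tested, and 3 of them rose in each isotype, among them Glipr1 by 1.68 (SE 0.08) in IgE and 1.40 (SE 0.08) in IgG1. The third was Crisp1, the close relative of Crisp3, named after its values were seen. Its stage difference of 5.68 (SE 0.67) in IgE and 4.48 (SE 0.96) in IgG1 exceeded that of Crisp3. It stood at 2.22 CPM in IgE PC, at 0.263 CPM in IgG1 PC and at 0.0400 CPM or less in the other groups. Reads shared by the 2 paralogues could be split between them, and 2 of the 3 IgE PC libraries held fractional counts for both genes, so the Crisp1 value is uncertain, though small beside the 61.4 CPM of Crisp3 in IgE PC. Of 10 other angiopoietin-like and angiopoietin genes 4 were tested, with 0 higher and 1 lower in IgE and 1 higher in IgG1: Angptl4 fell by 2.73 (SE 0.28) in IgE, and Angptl2 rose by 2.18 (SE 0.59) in IgG1 with a level of 5.69 CPM at D6. Angptl7, also named after its values were seen, was at 2.45 (SE 1.05) in IgG1, above the 1.76 of Angptl6, but was not called. Angptl2 followed the order of the fibroblast marker sums, with 0.227 CPM in IgE PC against 1.49 CPM in IgG1 PC, and their part in it was not tested. Neither tankyrase gene came near Hepacam2: Tnks differed by 0.65 (SE 0.11) in IgE and -0.20 (SE 0.11) in IgG1, and Tnks2 by 0.24 (SE 0.07) and -0.30 (SE 0.07). Pou2af1, encoding the OCT coactivator OBF-1, rose by 0.47 (SE 0.05) in IgE PC and 0.41 (SE 0.05) in IgG1 PC, and Pou2f2, encoding OCT2, fell by 0.40 (SE 0.07) and 0.25 (SE 0.07). With total-count scaling the median of the 3 OCT genes tested was -0.0027 in IgE and 0.18 in IgG1, and that of the tankyrase genes was -0.02 in IgE and -0.48 in IgG1.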

How the data were processed

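RNA-seq was carried out on polyA RNA from 15 libraries as single-end, strand-specific reads of 76 bases, per the labels' protocols. The authors deposited 1 table of RSEM expected counts and TPM values per gene, per the file headers. The submitters' processing notes name cutadapt 1.9.1, STAR 2.5.2a, RSEM 1.3.0, DESeq2 1.12.3 and the build GRCm38, without their roles. In each library at least 90.9% of the genes in the table, those with no counts included, had a whole expected count. Groups and replicate numbers came from the library titles.

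Expected counts were rounded. Genes were kept by filterByExpr (minimum count 10, minimum total 15), scaled by TMM and fitted for all 15 libraries with 1 mean per group in edgeR 4.0.16 (R 4.3.3; glmQLFit, robust, and glmQLFTest). The common biological coefficient of variation was 10.4%, with 10 residual degrees of freedom. P-values were Benjamini-Hochberg adjusted over 15692 genes and called under 0.05. Standard errors are the log2 fold change over the square root of F. CPM use TMM-scaled totals; correlations use log2 CPM with a prior count of 2. Alternatives were DESeq2 1.42.0, total-count and upper-quartile scaling, no filter, a replicate block, only the groups compared, limma 3.58.1 on log2(TPM + 0.5), and leaving out each library. Symbols were found for 51633 identifiers. Coordinates and exons are from GENCODE vM21 on GRCm38, and promoter windows from RefSeq on GRCm38.p6. The fitting code was tested on simulated data.

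The 7 genes, the lists and the tests were chosen with earlier results of these data known. Named genes are the 7 and the 3 most correlated genes of each (at least 10 CPM in a group, without immunoglobulin and T cell receptor segments, predicted models and pseudogenes). From the lists, up to 4 genes that changed were named, mostly at 5 CPM or more in a group. They were not taken in strict order of change. Cplx2 in IgE and Arhgap22 in IgG1 changed more than some named genes of their lists. Overlap means that replicate ranges overlap. Counting limits cover counting error only, since these reads carry no molecular identifiers and need not be independent molecules.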

Additional observations from a re-analysis of the deposited data

Results flagged for a closer look

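The change from the day 6 culture to the iGC stage was called different between the isotypes for 2 of the 7 genes. Of all genes tested, 1.99% were called higher and 1.88% lower in IgE iGC than in IgG1 iGC. For Crisp3 the change in IgE exceeded that in IgG1 by 1.13 (log2), since it climbed from 0.192 CPM to 13.1 CPM in IgE iGC and to 5.98 CPM in IgG1 iGC. For Hid1 the difference was 1.36, since it dropped from 3.58 CPM to 1.09 CPM in IgE iGC and to 0.428 CPM in IgG1 iGC. With a shared day 6 group, this difference is the direct contrast of the iGC groups, which edgeR's quasi-likelihood test called for both (adjusted p = 0.000666 and 0.0447). The iGC values may have entered the choice of the genes, so these p-values are not free of it. The Hid1 call was lost in 8 of 13 alternatives and that of Crisp3 in 0.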

How the results depend on the processing

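The direction of each of the 7 genes in the 3 tested contrasts was the same in all 13 alternatives, as were the calls of Hepacam2 and Crisp3 against the day 6 culture. Between the iGC groups, the genes called numbered 607, or 1435 when only the groups compared entered the fit, 396 with limma on log2(TPM + 0.5), 909 with DESeq2 and 329 to 417 without 1 replicate. Of the 7 genes, 2 were called in that contrast, in which 1.99% of all genes were called higher and 1.88% lower. DESeq2 called 3 of the 7, 2 higher and 1 lower. The number was 1 with upper-quartile scaling, 1 without the low-count filter, 1 with limma on log2(TPM + 0.5) and 1 to 2 without 1 replicate. The genes called for a stage difference that differs between isotypes numbered 6733, or 4485 with limma on log2(TPM + 0.5) and 5900 to 7425 without 1 replicate. The cause of these shifts was not tested. Same-numbered libraries did not deviate together (mean r of -0.0146 over 30 pairs, 0 of them over 0.1), so no pairing by number was seen. The labels do not say whether same-numbered libraries share a culture, and these correlations cannot settle it. A fit with a replicate block called 580 genes between the iGC groups, and 10810 and 10663 for IgE and IgG1 iGC against day 6. It called 9950 and 9152 for the stages in IgE and IgG1, and 9005 between the plasma cells. For IgE PC and IgG1 PC against day 6 it called 11928 and 11167, and 6533 for the interaction of isotype and stage. Among the 580 were 2 of the 7 genes, the same number as without the block. Depth limits Arhgap32, Ankrd55 and Hepacam2 most, whose lowest groups hold 0 to 9 counts per library.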

Other observations

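The deposited expected count and TPM of a gene together give the effective transcript length that was used for it, which depends on the mix of its transcripts. Scaled on 193 to 330 genes with a single annotated transcript per library, this length was steady for Crisp3, at 1372 to 1375 bases in the group means, and for Angptl6, at 1540 to 1542 bases, each of which has 1 annotated transcript. It was not steady for Arhgap32, which has 7 annotated transcripts of 380 to 13568 bases. Its implied length was 2488 to 4205 bases in the D6 libraries and 5739 to 7934 bases in IgE PC, with no overlap, and the other groups had TPM too low to give it. For Ankrd55 it was 1794 to 2458 bases at D6, 2622 to 2706 bases in IgE PC and 2654 to 2752 bases in IgG1 PC. Hid1 differed in the other direction, with 3007 to 3155 bases at D6, 2735 to 2765 bases in IgE PC and 2663 to 2807 bases in IgG1 PC. The D6 values of Arhgap32 and Ankrd55 rest on 27 to 41 counts per library and those of Hid1 on 142 to 159. No test was made.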
